A study of Mus musculus with 12 samples.

Results

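In germinal center B cells of mice labelled Pbrm1-/-, 825 open chromatin sites at the ends of genes had less ATAC-seq signal in all 6 knockout libraries than in any of the 6 wild-type libraries. They were chosen from a count table of 68689 peaks, each 501 bp long. A gene-end peak here is an autosomal peak whose midpoint lies within 1000 bp of either end of a protein-coding gene, and 15681 peaks met that definition, of which 15360 had a mean of at least 2 CPM and could be chosen. CPM is the count of a peak scaled by the library's total over all peaks. A peak was kept if the highest of the 6 knockout values was below the lowest of the 6 wild-type values and if the wild-type mean was at least 1.4 times the knockout mean. The 825 peaks were 5.37% of the 15360 eligible ones. The choice rests on the genotype difference itself, so that difference is described below and not tested. Without the condition on the ratio, 1416 eligible peaks (9.22%) were lower in every knockout library and 106 (0.69%) were higher in every one.

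The animals were C57BL/6 mice aged 8 to 10 weeks, and the cells came from the spleen. WT libraries came from Pbrm1+/+ mice and HOMO libraries from Pbrm1-/- mice. In each genotype 3 libraries were made from a population labelled CB and 3 from one labelled CC, abbreviations that the labels do not spell out. The columns of the count table of both genotypes carry the prefix Pbrm1AID, which no source used here explains. Neither the allele nor any Cre driver is stated in the sources used here, nor whether libraries came from separate mice, so a p-value here reflects only how far these libraries scatter, and that scatter may be technical. The method was Omni-ATAC, in which a transposase cuts accessible DNA and the cut fragments are sequenced.

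Pbrm1 encodes a protein with several bromodomains that is found in PBAF, one form of the SWI/SNF (BAF) complexes, and not in the other forms. SWI/SNF complexes use ATP to slide or evict nucleosomes. At an active gene the promoter is kept open, and the first nucleosome of the transcribed region lies just downstream of the start. ATAC-seq signal at a gene's start is usually strong and falls off on either side.

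The reference promoter sequences show what the DNA at these places looks like. Each line below holds the 250 bases before a gene's start, read in the direction of the gene, from RefSeq's annotation of GRCm38.p6, which has the coordinates of mm10, the build of the peaks. Capitals mark matches, on either strand, to a set of 12 short motifs, of which those found here were the GC box GGGCGG, the CCAAT box CCAAT, the NRF1 motif (GCGCN followed by TGCGC) and the AP-1 motif TGANTCA. A match is a run of letters and not a measured binding site. The first set comes from the 89 starts whose whole 300 bp window, from 250 bases before to 50 after the start, lay inside a member peak. It has the pair with the largest ratio among these and then the pair with the highest WT level.
D930020B18Rik, chr10:121641451-121641700, plus strand: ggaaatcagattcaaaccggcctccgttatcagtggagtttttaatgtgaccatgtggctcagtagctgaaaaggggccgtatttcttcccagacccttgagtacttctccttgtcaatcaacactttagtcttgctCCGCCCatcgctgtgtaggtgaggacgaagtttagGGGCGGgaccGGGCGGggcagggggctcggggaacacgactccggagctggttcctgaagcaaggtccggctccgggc
Bivm, chr1:44118707-44118956, plus strand: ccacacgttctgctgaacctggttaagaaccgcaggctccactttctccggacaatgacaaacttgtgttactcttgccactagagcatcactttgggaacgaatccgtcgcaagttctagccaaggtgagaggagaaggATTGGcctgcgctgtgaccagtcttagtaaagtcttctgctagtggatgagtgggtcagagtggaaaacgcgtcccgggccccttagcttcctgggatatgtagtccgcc
Frmd5, chr2:121807058-121807307, minus strand: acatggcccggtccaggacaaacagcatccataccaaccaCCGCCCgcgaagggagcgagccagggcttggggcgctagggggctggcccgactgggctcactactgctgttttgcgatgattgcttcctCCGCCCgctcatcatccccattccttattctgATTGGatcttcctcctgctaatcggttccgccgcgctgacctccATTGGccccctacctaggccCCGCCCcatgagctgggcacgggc
Kif3c, chr12:3364882-3365131, plus strand: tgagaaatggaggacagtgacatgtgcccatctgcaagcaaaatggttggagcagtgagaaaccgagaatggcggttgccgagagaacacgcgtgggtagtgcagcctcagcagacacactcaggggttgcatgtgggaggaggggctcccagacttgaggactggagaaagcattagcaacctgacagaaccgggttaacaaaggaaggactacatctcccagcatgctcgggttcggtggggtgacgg
The second set has starts that were themselves outside the chosen peak. At these genes the chosen peak lay 547 to 723 bp into the gene.
Ndufa8, chr2:36049339-36049588, minus strand: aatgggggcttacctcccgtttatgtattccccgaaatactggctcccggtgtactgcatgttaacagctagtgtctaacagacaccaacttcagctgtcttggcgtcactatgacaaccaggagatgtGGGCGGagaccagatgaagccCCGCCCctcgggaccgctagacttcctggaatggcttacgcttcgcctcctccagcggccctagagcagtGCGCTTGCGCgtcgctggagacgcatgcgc
Dpf2, chr19:5912872-5913121, minus strand: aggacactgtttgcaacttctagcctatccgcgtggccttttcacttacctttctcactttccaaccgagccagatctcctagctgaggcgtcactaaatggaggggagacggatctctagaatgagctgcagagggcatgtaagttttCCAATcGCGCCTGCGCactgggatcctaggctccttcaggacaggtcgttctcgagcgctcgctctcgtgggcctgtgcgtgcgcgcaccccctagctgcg
Bag3, chr7:128523333-128523582, plus strand: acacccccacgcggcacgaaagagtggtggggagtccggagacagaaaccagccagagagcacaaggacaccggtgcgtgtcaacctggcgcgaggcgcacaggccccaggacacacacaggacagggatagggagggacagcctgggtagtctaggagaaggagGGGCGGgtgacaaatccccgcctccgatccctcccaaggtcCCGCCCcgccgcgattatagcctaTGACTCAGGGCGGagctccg
Atp5c1, chr2:10080433-10080682, minus strand: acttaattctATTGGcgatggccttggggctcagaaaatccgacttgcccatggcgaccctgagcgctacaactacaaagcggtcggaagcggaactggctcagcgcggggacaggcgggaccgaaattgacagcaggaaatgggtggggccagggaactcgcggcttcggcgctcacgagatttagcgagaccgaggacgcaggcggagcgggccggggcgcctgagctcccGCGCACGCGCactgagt
In this second set Ndufa8, Dpf2 and Atp5c1 each hold an NRF1 match near the start, and Bag3 holds 3 GC boxes and an AP-1 match. Of the first set, D930020B18Rik and Frmd5 each hold 3 GC boxes and Kif3c holds no match to any of the motifs searched.

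Depth differed between libraries. Total counts ran from 8826472 to 31595888 in WT and from 6431354 to 45590454 in HOMO. The median member peak held 117 to 403 counts in a WT library and 57 to 342 in a HOMO library. The HOMO libraries numbered 1 had the lowest totals, 7679509 counts for CB and 6431354 for CC, and they stood apart from the other HOMO libraries at the member peaks. There the median member peak had 8.72 CPM in HOMO CB 1 and 8.86 CPM in HOMO CC 1, against 7.27 to 7.50 CPM in the other 4 HOMO libraries and 12.6 to 14.1 CPM in the 6 WT libraries. WT CB 2, at 8826472 counts, was about as shallow and had a member median of 13.3 CPM, inside the WT range. The part of depth in the values of the libraries numbered 1 was not tested. In 623 of the 825 peaks the highest HOMO value came from a library numbered 1, a larger share than the 9054 of the 15360 eligible peaks. When both libraries numbered 1 were left out of the HOMO group, the same rule took 1984 peaks, among them 800 of the 825.

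**Figure D1:**
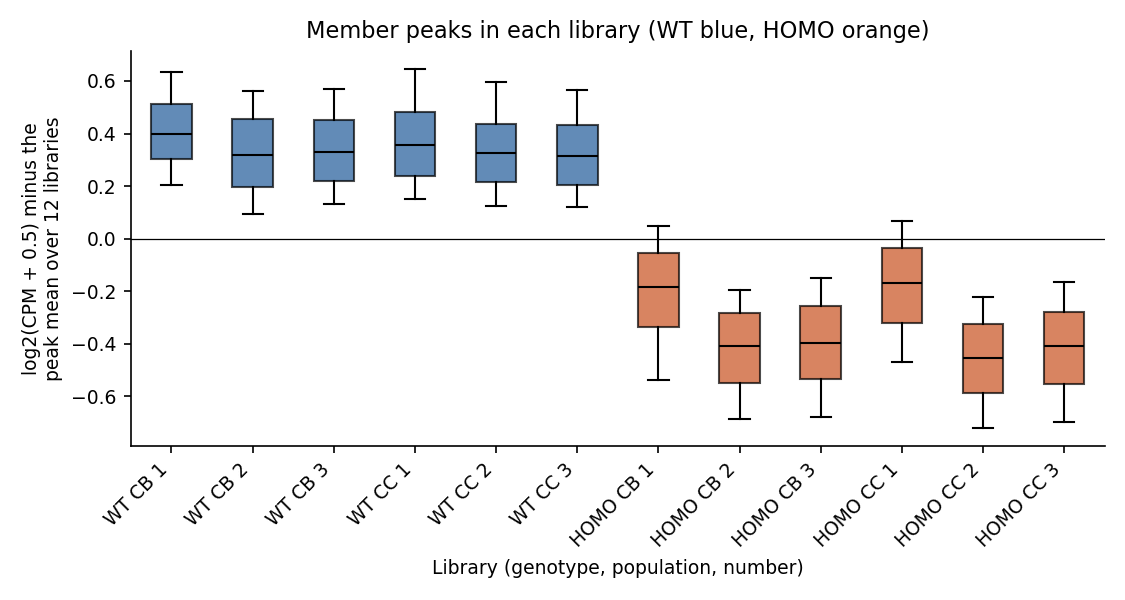
Signal at the 825 member peaks in each of the 12 libraries, as log2(CPM + 0.5) minus the peak's mean over all libraries; boxes span the middle of the peaks with the median as a line, and whiskers run from the 10th to the 90th percentile. WT medians lie between 0.31 and 0.40, HOMO medians between -0.46 and -0.40 for libraries 2 and 3, and at -0.18 and -0.17 for the libraries numbered 1; the separation of the genotypes is set by the choice of peaks.

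The cell populations were checked against marker genes. All 10 genes on a list of germinal center B cell markers had a gene-end peak, and none of their 15 peaks was a member. Their summed signal was 497 to 539 CPM in WT and 547 to 571 CPM in HOMO libraries, higher in HOMO without overlap. Of 10 T cell markers, Cd3e, Cd3g, Cd8a, Zap70, Trat1 and Themis had no gene-end peak, and the 5 peaks of the other 4 summed to 65.4 to 73.6 CPM in WT and 54.7 to 69.0 CPM in HOMO, with 1 of them a member. For 10 myeloid markers 3 peaks at 2 genes were found, 1 of them a member, with 16.4 to 24.4 CPM in WT and 16.9 to 21.5 CPM in HOMO. These are bulk libraries, in which fewer cells of a type and less signal per cell cannot be told apart. None of the 4 peaks at erythroid markers (3 of 10 genes) or the 19 at plasma cell markers (9 of 10 genes) was a member. The erythroid sum was 84.3 to 96.2 CPM in WT and 88.4 to 94.7 CPM in HOMO. The plasma cell sum was 530 to 540 CPM in WT CB and 501 to 520 CPM in HOMO CB, without overlap, and 504 to 530 CPM and 482 to 511 CPM in CC, with overlap. The part of other cell types in the member peaks was not tested.

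Most of the chosen peaks were of low to middling strength and the differences were moderate. The mean WT signal had a median of 13.3 CPM over the 825 peaks and ranged from 2.51 to 47.4 CPM, and the mean HOMO signal had a median of 7.86 CPM and a maximum of 33.2 CPM. The ratio of WT to HOMO ran from the threshold of 1.4 up to 2.89 with a median of 1.64. It was below 1.5 in 192 peaks and at least 2 in 92. The median log2 ratio of HOMO to WT was -0.71 over the members, -0.70 within CB and -0.71 within CC. Over all 15360 eligible peaks it was -0.09. Just inside the threshold were the Osgep and Apex1 peak, with 10.6 CPM in WT and 7.57 in HOMO, and the Pgap1 and Kbtbd12 peaks. Just outside it was the Poglut1 peak, with 15.7 and 11.2 CPM, followed by those of Fabp5 and Slc25a42.

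The rule took few of the strongest peaks. Among eligible peaks with a mean of 8 to 16 CPM, 13.8% were members, against 5 of the 5508 peaks above 32 CPM. Gene ends differed from other sites at equal strength, since at 8 to 16 CPM the same rule took 2.16% of the other autosomal peaks. Over all strengths it took 648 of 45432 other autosomal peaks (1.43%). At gene ends the mirrored rule, every HOMO library higher and the same ratio, took 20 peaks (0.13%), and at other autosomal peaks it took 299 (0.658%). The members were spread over all autosomes, from 3.09% of the eligible peaks on chromosome 7 to 7.45% on chromosome 18.

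The members had a property that the rule did not use: a larger share of them lay downstream of a start than of the eligible peaks. Where RefSeq's promoter table lists a start within reach, peaks were sorted by the signed distance of the midpoint from the nearest listed start, within 300 bp of it, 301 to 1000 bp downstream (into the gene) or 301 to 1000 bp upstream. Of 2563 eligible peaks downstream of a start, 365 (14.2%) were members. Of 1398 upstream peaks 61 (4.36%) were members, and of 6845 peaks at a start 197 (2.88%) were. At 3′ ends of genes, away from any listed start, the share was 9 of 1121 (0.803%). The remaining 3433 peaks, 193 of them members (5.62%), had no listed start within 1000 bp and were not at a 3′ end by the same table, or lay on chromosome 18, and were not placed. Downstream peaks thus made up 44.2% of the members (95% exact Clopper-Pearson interval 40.8 to 47.7, which covers counting error only) and 16.7% of the eligible peaks. With gene ends reaching only 500 bp, which leaves out most of the downstream zone, they made up 23.6% of 368 members.

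The share of members rose along the gene and then fell. It was lowest, 1.08%, in the bin from -300 to -201 bp, before the start. It was 3.07% in the first 100 bp after the start, 18.1% (93 of 513 peaks) at 500 to 599 bp, the highest of the 20 bins, and 8.97% at 900 to 999 bp. The genotype ratio of all eligible peaks, members or not, followed a similar course: the median log2 ratio of HOMO to WT was 0.05 in the bin before the start with the fewest members and -0.37 at 600 to 699 bp into the gene, where 90.1% of the peaks had a lower mean in HOMO. For all downstream peaks the median was -0.31, for all peaks at starts -0.07, upstream -0.05 and at 3′ ends 0.09. The 2 populations gave nearly equal values, with downstream medians of -0.29 in CB and -0.32 in CC.

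**Figure D2:**
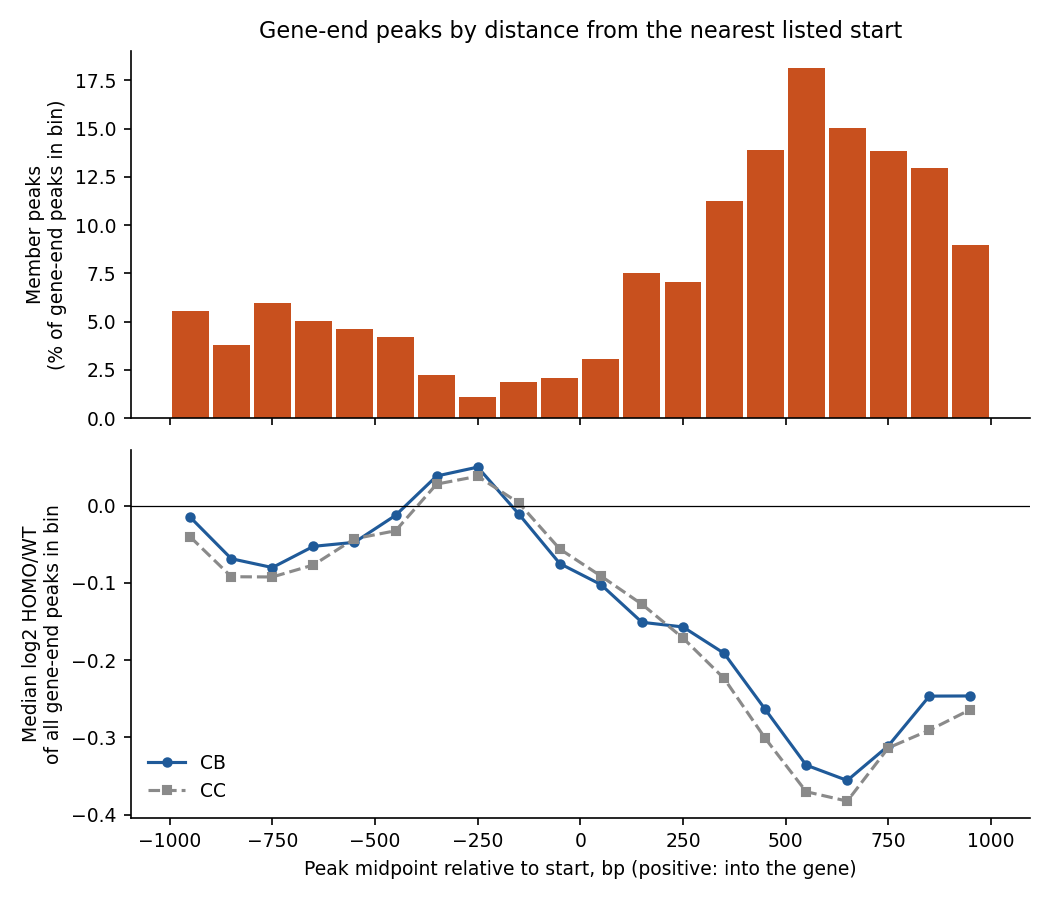
Eligible gene-end peaks in bins of 100 bp by the distance of the midpoint from the nearest listed start (x axis, bp, positive into the gene): the percentage that were members (upper panel) and the median log2 ratio of HOMO to WT over all peaks of the bin, for CB and CC (lower panel). The member share is highest, 18.1%, at 500 to 599 bp into the gene, and both median lines are lowest at 600 to 699 bp.

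Peaks downstream of a start are weaker than peaks at a start, with median levels of 15.2 and 34.2 CPM, so the positions were also set side by side at matched strength. At 8 to 16 CPM, 184 of 805 downstream peaks (22.9%) were members, against 82 of 680 at starts (12.1%), 27 of 347 upstream (7.78%) and 4 of 245 at 3′ ends (1.63%). Their median log2 ratios were -0.42, -0.27, -0.15 and 0.04 in that order. Downstream stayed the position with the highest share at 4 to 8 CPM (21.6%) and at 16 to 32 CPM (9.27%) as well. Above 32 CPM the medians were -0.03 downstream and -0.01 at starts. Where a peak was downstream of 1 start and also near an opposite-facing one, 49 of 274 (17.9%) were members, against 316 of 2289 (13.8%) for the other downstream peaks. Genes with a downstream member had a median length of 23399 bp and genes with another downstream peak 24284.5 bp.

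The position classes were also summed over whole libraries, members included. All downstream peaks together, the 365 members among them, held 5.04 to 5.29% of the counts in the WT libraries. In the HOMO libraries they held 4.20 to 4.75%, without overlap. The rule chose those members for lower HOMO values, so this gap is partly set by the choice. Upstream peaks held 3.33 to 3.61% and 3.39 to 3.50%, and peaks at starts 25.1 to 27.7% and 24.9 to 26.1%, both with overlap. Downstream peaks that were not members had a median of 17.5 to 18.6 CPM in WT libraries and 13.6 to 16.3 CPM in HOMO libraries, and the highest of these HOMO values still lay below the WT range. The medians of all upstream peaks did not overlap either, at 17.6 to 17.9 CPM in WT and 16.2 to 16.9 CPM in HOMO, although their share of counts did. These class totals are given without a test because the position pattern was noticed in the same libraries.

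Most downstream members had a stronger peak at the start of the same gene that differed less. Such a companion, with its midpoint within 250 bp of the start, was found for 307 of the 365 (84.1%), at a median distance of 617 bp between midpoints. Neighbouring peaks did not overlap, so no stretch of DNA was counted in both. The median signal of these 307 downstream members was 14.4 CPM in WT and 8.73 CPM in HOMO, a median log2 ratio of -0.68. Their companions at the start had 39.3 CPM in WT and 37.4 CPM in HOMO, a median log2 ratio of -0.11, and 10 of the 307 were members themselves. The start was less lowered than the downstream member in 302 of 307 pairs, a count that the choice of the downstream peaks favours. For downstream peaks that were not members, the medians were -0.28 downstream and -0.01 at the start over 1626 pairs, and the start was the less lowered of the 2 peaks in 1396.

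**Figure D3:**
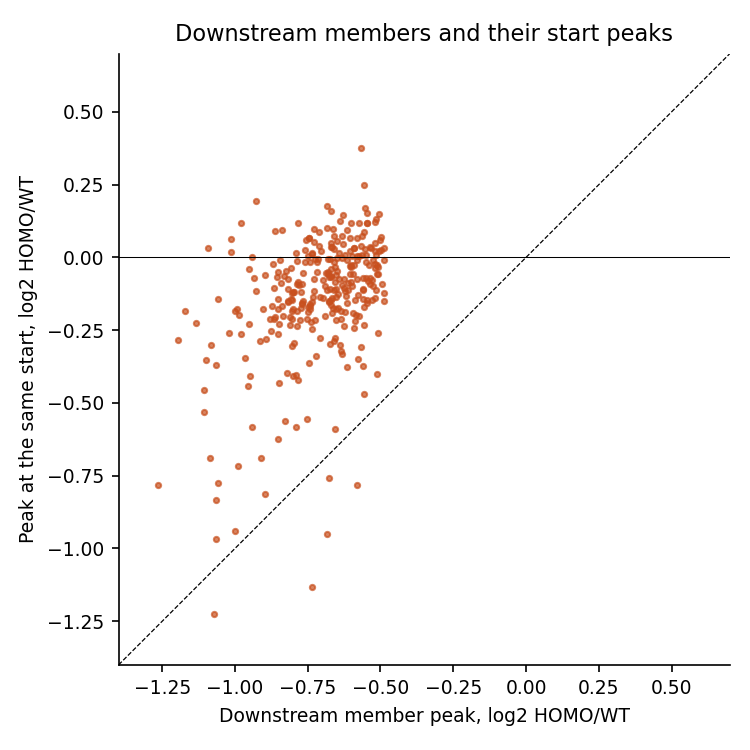
Log2 ratio of HOMO to WT of 307 downstream member peaks (x axis) and of the peak at the start of the same gene (y axis); the dashed line marks equal values. Points lie left of -0.48 because of the membership rule, while the start peaks centre on -0.11, and 302 points lie above the dashed line.

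The amino acid transporter gene Slc7a1 had the member peak with the highest WT mean, 47.4 CPM. It lay 570 bp into the gene at chr5:148399084-148399584 and had a lowest, median and highest value of 39.6, 48.4 and 51.7 CPM in WT and 29.6, 32.9 and 35.8 CPM in HOMO. The start peak of Slc7a1 had 58.3 CPM in WT and 54.8 CPM in HOMO. Next came 3 peaks at starts. Frmd5, which encodes a FERM domain protein, had 42.5, 47.2 and 52.0 CPM in WT and 30.0, 31.9 and 37.2 CPM in HOMO at its start. Naxe, an enzyme that repairs damaged NADH and NADPH, had 39.4 CPM ± 2.02 (SD, n = 6) in WT and 27.9 CPM ± 1.15 in HOMO, and the peak of Zfyve21 and the DNA repair gene Xrcc3 had 39.1 CPM ± 3.22 and 26.0 CPM ± 2.24. In all 3 the WT and HOMO values were far apart compared with their SDs, as the rule favours. Impdh1, an enzyme of guanine nucleotide synthesis, had a downstream member peak with 35.7, 39.0 and 41.9 CPM in WT and 23.9, 27.1 and 33.6 CPM in HOMO. The gap between the genotypes was narrow there, and the highest HOMO value, 33.6 CPM, came from HOMO CC 1. Cert1, which encodes a ceramide transport protein and shares this gene end with the DNA polymerase gene Polk, had a median of 37.8 CPM in WT and 24.0 CPM in HOMO at its downstream peak, and the highest HOMO value there was 26.4 CPM. Its start peak had 59.7 and 57.4 CPM.

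The largest ratios were found at weaker peaks, and several of these were at starts. A peak at one end of Tmem253 (chr14:52014489-52014989) had the largest, 2.89, with 4.65, 6.47 and 9.94 CPM in WT and 1.87, 2.44 and 3.16 CPM in HOMO. The next peak along, at chr14:52013853-52014353, was also a member, with a ratio of 2.87. Zfp13, a zinc finger gene, combined a large ratio with a higher level: the 6 WT values were 15.5, 11.9 and 15.7 CPM in CB and 12.3, 14.5 and 16.7 CPM in CC, and the 6 HOMO values were 5.60, 5.44 and 5.86 CPM in CB and 4.66, 6.10 and 5.61 CPM in CC. This peak lay 393 bp into the gene, at chr17:23598844-23599344, and its ratio was 2.60. The HOMO values were tightly grouped, and HOMO CB 1 and CC 1 did not stand above the rest there.

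Nqo1, a quinone reductase induced by oxidative stress, had a member peak at its start with 5.77, 6.86 and 8.04 CPM in WT and 1.91, 2.59 and 3.73 CPM in HOMO. Cybrd1, a ferric reductase, had 10.0, 10.7 and 12.6 CPM in WT and 2.59, 3.38 and 7.77 CPM in HOMO at its start. In Cybrd1 both libraries numbered 1, at 5.73 and 7.77 CPM, were the highest of the HOMO group, and the other 4 lay between 2.59 and 3.58 CPM. Fbln5, which encodes an extracellular matrix protein, had a weak start peak with means of 3.69 CPM ± 0.612 (SD, n = 6) in WT and 1.48 CPM ± 0.578 in HOMO.

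**Figure D4:**
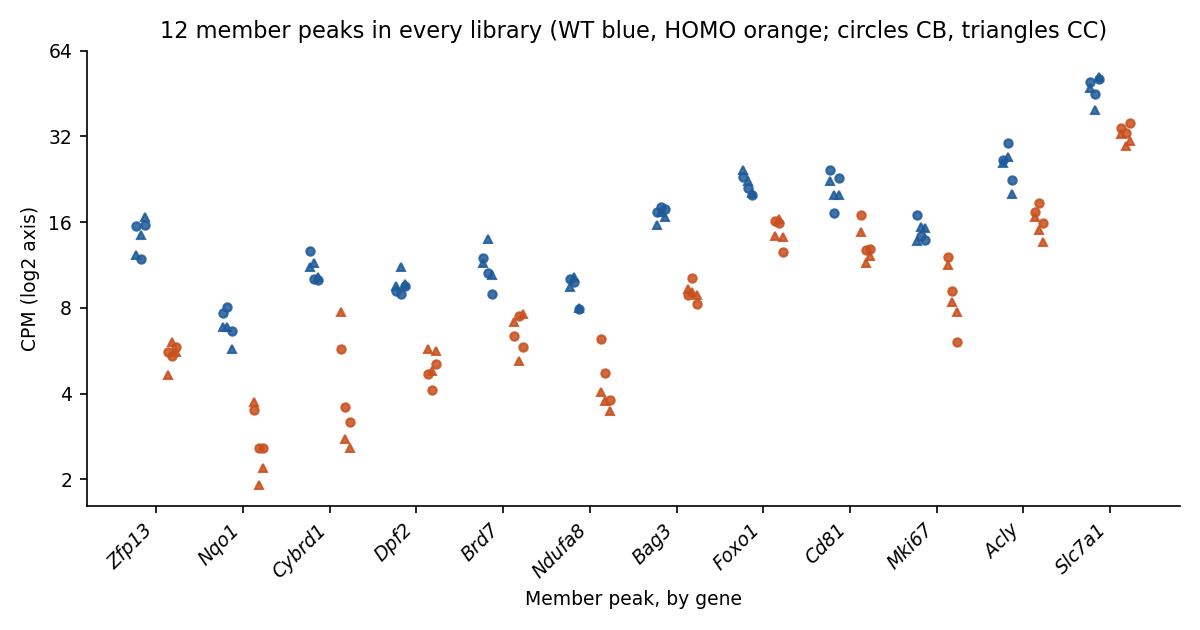
CPM of 12 named member peaks in each library on a log2 axis; WT in blue and HOMO in orange, circles for CB and triangles for CC. In every peak the 6 HOMO values lie below the 6 WT values, as the rule requires, and in Cybrd1 and Mki67 the highest HOMO values, from the libraries numbered 1, lie closest to WT.

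Among the SWI/SNF genes themselves, 2 of 54 eligible peaks were members (3.70%), against 5.37% of all eligible peaks. Dpf2 encodes a subunit of the canonical BAF complex, and its downstream peak at chr19:5911898-5912398, 723 bp into the gene, had 8.95, 9.56 and 11.1 CPM in WT and 4.12, 4.93 and 5.75 CPM in HOMO. The peak at the start of Dpf2 had 20.6 CPM in WT and 20.0 CPM in HOMO. Brd7 encodes a bromodomain subunit of PBAF, and its downstream peak at chr8:88361077-88361577 had 8.93, 11.1 and 14.0 CPM in WT and 5.20, 6.77 and 7.61 CPM in HOMO. Its start peak had 28.8 and 26.0 CPM. In both genes the difference was larger, as a ratio, downstream than at the start, which the choice of the downstream peaks favours.

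Genes of the respiratory chain and ATP synthase had 8 members among 133 peaks (6.02%) and a median log2 ratio over all of these of -0.14. Ndufa8, a subunit of complex I, had 7.91, 9.67 and 10.3 CPM in WT and 3.49, 3.93 and 6.25 CPM in HOMO at its downstream peak, while its start peak had 28.6 CPM in WT and 29.2 CPM in HOMO. Atp5c1, the gamma subunit of ATP synthase, whose promoter is printed above, had 14.4 and 7.82 CPM downstream and 52.4 and 45.2 CPM at the start. Uqcrc2, a core subunit of complex III, had 10.4 CPM ± 1.91 (SD, n = 6) in WT and 5.05 CPM ± 1.27 in HOMO. The lists for the mitochondrial ribosome (5 of 96) and the cytosolic ribosomal proteins (4 of 116, 3.45%) gave shares close to or below the 5.37% of all eligible peaks.

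Of the genes for protein quality control, Bag3, a cochaperone of Hsp70, had a downstream peak at chr7:128523880-128524380 with 15.7, 17.4 and 18.1 CPM in WT and 8.27, 8.98 and 10.2 CPM in HOMO. The WT values were close together and far from the HOMO values. The start peak of Bag3 differed too, with 30.7 and 25.2 CPM. The chaperone list had 6 members among 123 peaks (4.88%) and the proteasome list 3 among 62 (4.84%), near the 5.37% of all eligible peaks. Psme4, a proteasome activator subunit, had 13.8 CPM ± 1.05 (SD, n = 6) in WT and 7.93 CPM ± 2.34 in HOMO at its downstream peak.

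The lists of genes with germinal center functions had 1 or 2 members each, too few to set apart from the 5.37% of all eligible peaks. Among 68 peaks of germinal center transcription factors the single member (1.47%) was at Foxo1, a factor of the dark zone program, 800 bp into the gene at chr3:52268887-52269387. It had 19.9, 21.7 and 24.4 CPM in WT and 12.6, 15.1 and 16.4 CPM in HOMO, against 40.9 and 38.9 CPM at the start. The median log2 ratio over the 68 peaks was 0.03. B cell receptor signalling genes had 2 members among 59 peaks (3.39%) and a median of 0.07. These were Cd81, a tetraspanin membrane protein, with 17.2, 21.1 and 24.4 CPM in WT and 11.5, 12.8 and 16.9 CPM in HOMO, and Sos1, an exchange factor for Ras, with means of 29.2 and 19.7 CPM. The list of light and dark zone programs had 2 members among 60 peaks (3.33%), at Foxo1 and Mki67. Mki67, the proliferation marker, had 13.8, 14.8 and 16.9 CPM in WT and 6.05, 8.82 and 12.1 CPM in HOMO at its downstream peak, and 51.2 and 52.0 CPM at its start.

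Shares differed between the other lists, around the 5.37% of all eligible peaks. The Zfp zinc finger genes had 28 members among 374 peaks (7.49%) and a median log2 ratio of -0.16, and the aminoacyl tRNA synthetases, which charge tRNAs, had 5 among 44 (11.4%) with a median of -0.10. RNA polymerase, TFIID and Mediator genes had 8 among 146 (5.48%), DNA repair and replication genes 6 among 129 (4.65%), Rab GTPases 4 among 80 and genes of ubiquitin ligases and deubiquitinases 8 among 139. Cholesterol and fatty acid synthesis had 1 among 42 (2.38%), at Acly, the enzyme that makes cytosolic acetyl-CoA, with 25.4 CPM ± 3.63 (SD, n = 6) in WT and 16.2 CPM ± 1.78 in HOMO. Interferon response genes had 2 among 44, the start peaks of Xaf1 and of Rsad2, an antiviral enzyme, the latter with 5.60 CPM ± 0.998 in WT and 3.07 CPM ± 0.224 in HOMO. These counts describe the lists and were not tested, since the members were chosen for the difference.

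Some genes held several members. The 825 peaks touched 913 distinct genes, 126 of the peaks lay at ends of more than 1 gene, and 41 genes had at least 2 member peaks. Only Gfi1 and Yjefn3 had 3. Gfi1 encodes a transcriptional repressor of blood cell development, and its 3 neighbouring peaks between chr5:107724612-107725112 and chr5:107725883-107726383 had 22.5, 32.0 and 25.3 CPM in WT and 14.1, 21.9 and 17.0 CPM in HOMO. Peaks at ends of several genes were members about as often as the others (5.42% against 5.36%).

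Because the rule used all 12 libraries, the difference was also read in libraries that had no part in the choice. Peaks were chosen again without the libraries of 1 number, and the 2 populations of that number were then examined. Chosen without the libraries numbered 2, 1024 peaks were lower in HOMO than in WT in 97.3% of cases in CB 2 and 99.2% in CC 2. Over all gene-end peaks these shares were 61.8 and 65.0%. Chosen without the libraries numbered 3, 1095 peaks gave 98.1% and 99.1%, against 73.7 and 69.5%. Chosen without the libraries numbered 1, 1997 peaks gave 92.9% in CB 1 and 85.2% in CC 1, against 56.5 and 56.1%. The median log2 ratio in the left-out pair was -0.66 and -0.75 for number 2, -0.67 and -0.68 for number 3, and -0.44 and -0.33 for number 1, where it was -0.73 in the choosing libraries. The difference was thus present in each left-out pair and was smaller in both pairs numbered 1. Genotype and anything else that all HOMO libraries share cannot be told apart by such a reading. CB and CC libraries that share a number deviated together within a genotype, so the left-out pairs of 1 number are not independent of each other. Downstream peaks were 42.5 to 43.9% of these 3 sets and 16.7% of the eligible peaks. These shares describe the chosen peaks and use no value of the left-out libraries, and the 3 sets share choosing libraries.

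Signal at the members differed little between CC and CB. The rule limits how far these populations can part, because every HOMO library of both must lie below every WT library of both. In WT, 1 of the 825 peaks passed edgeR's quasi-likelihood test at an adjusted p under 0.05, against 5.43% of all 68689 peaks and 1.37% of the eligible gene-end peaks. An unadjusted p under 0.05 in that test was found at 52 members, 1911 of the 15360 eligible peaks and 13665 of all peaks, a smaller share for the members than for either. In HOMO 8 passed, 7 higher in CC and 1 lower (0.97%), against 7.22% of all peaks and 1.93% of the gene-end peaks. The median edgeR log2 fold change of CC against CB over the members was -0.11 in WT and -0.05 in HOMO, close to -0.09 and -0.05 over the eligible peaks. These values include TMM factors, which were 0.954 to 0.989 in WT CB and 0.999 to 1.04 in WT CC and so lower CC in the fit. In CPM the medians were -0.03 and -0.02 over the members, and -0.02 in both genotypes over the eligible peaks. No label states that CB and CC libraries of 1 number belong together, but within a genotype their deviations correlated. With that number taken as a block, the counts were 70 in WT (7 higher and 63 lower in CC) and 80 in HOMO (24 higher and 56 lower). These are 8.48 and 9.7% of the members, where the same fit called 22.1% and 22.2% of all peaks and 18.2 and 12.6% of the gene-end peaks.

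The peak that passed in WT was at Itpripl2. Its values were 3.27, 3.17 and 3.58 CPM in WT CB and 7.80, 5.94 and 5.27 CPM in WT CC, a log2 difference of 0.82 (SE 0.21, edgeR adjusted p = 0.0274). In HOMO the 6 values lay between 2.04 and 2.75 CPM, with a log2 difference of -0.19 (SE 0.23, edgeR adjusted p = 0.731). The adjusted p in WT lay above 0.05 in 4 of the fits that left out 1 WT library, the largest being 0.135 without WT CC 1.

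In HOMO, the peak at an end of the zinc finger gene Zfp329 had 4.82, 4.61 and 5.59 CPM in CB and 8.71, 8.05 and 8.36 CPM in CC, a log2 difference of 0.69 (SE 0.16, edgeR adjusted p = 0.00846). Gdf11, which encodes a secreted factor of the TGF-beta family, had 3.39, 3.29 and 3.42 CPM in CB and 6.06, 5.31 and 6.24 CPM in CC (log2 difference 0.77, SE 0.18, edgeR adjusted p = 0.0103). Cd70, the ligand of CD27 on activated lymphocytes, had 1.69, 2.37 and 2.90 CPM in CB and 4.51, 4.60 and 4.37 CPM in CC (log2 difference 0.84, SE 0.22, edgeR adjusted p = 0.0225). Pacsin3, which encodes a membrane-bending adaptor protein, had 2.08, 1.59 and 2.43 CPM in CB and 4.35, 3.26 and 3.96 CPM in CC (log2 difference 0.86, SE 0.23, edgeR adjusted p = 0.0241). In all 4 peaks the CB and CC values of HOMO did not overlap. In WT Cd70 had 5.24, 5.21 and 4.78 CPM in CB and 8.28, 9.32 and 5.96 CPM in CC, with an adjusted p of 0.136 by edgeR, or 0.0289 with the replicate block, which makes it a call. The calls of Zfp329, Gdf11, Cd70 and Pacsin3 in HOMO were each lost when HOMO CB 2 was left out (edgeR adjusted p = 0.0587, 0.0523, 0.0928 and 0.156).

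Rps21, a ribosomal protein gene, was the member lower in CC, with 10.8, 8.81 and 10.3 CPM in HOMO CB and 6.53, 7.30 and 7.01 CPM in HOMO CC (log2 difference -0.52, SE 0.15, edgeR adjusted p = 0.0403). In WT the difference was -0.48 with an edgeR adjusted p of 0.0574, just on the other side of the threshold, and with the replicate block it was called (edgeR adjusted p = 0.00256). Leaving out HOMO CB 3 ended the call in HOMO (edgeR adjusted p = 0.156), as did 8 other settings.

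The genotype difference itself was not found to differ between CC and CB at any member. The rule bounds this comparison at the members, because it asks for lower HOMO values in both populations. No member passed the edgeR test for a genotype effect that differs between CC and CB, and none of all 68689 peaks did. In that test 8 members and 810 of all peaks had an unadjusted p under 0.05. DESeq2 called no member either. At Itpripl2 the difference of the log2 genotype effects, CC minus CB, was -1.01 (SE 0.31, edgeR adjusted p = 1.00). The contrasts of HOMO against WT in the same fit called 695 members lower in CB, against 3.85% of all peaks, and 594 in CC, against 2.17%. The rule chose the members on that contrast, so nothing is read from these shares.

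**Figure D5:**
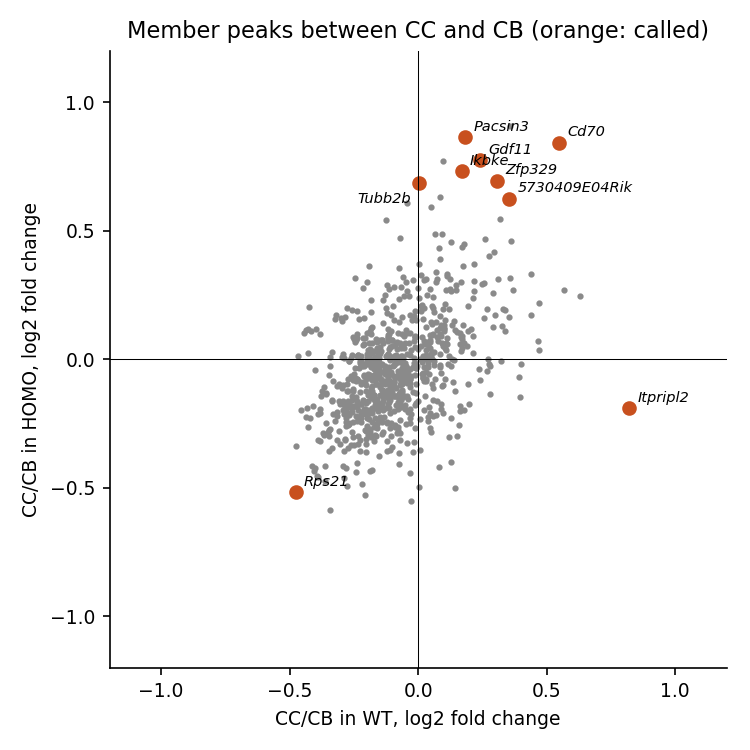
Log2 fold change of CC against CB in WT (x axis) and in HOMO (y axis) for the 825 member peaks; orange points and names mark peaks with an edgeR adjusted p under 0.05 in either genotype, and the point named Tubb2b is the weaker of the 2 member peaks of that gene. Most points lie near 0 on both axes, and Itpripl2 is the peak called in WT.

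The promoter sequences were compared with those of other genes as a description. For 89 listed promoters lying inside a member peak, the median GC content of the 300 bp window was 63.7%, close to the 63.0% of the 4500 promoters inside any eligible peak and above the 56.3% of all 21263 promoters listed. The ETS motif CCGGAAG was found in 6.74% of the 89, in 22.2% of the 4500 and in 11.6% of all promoters. The NRF1 motif was found in 3.37%, 12.9% and 6.38%, and the YY1 motif AANATGGC in 2.25%, 10.1% and 6.37%. Member peaks are weaker than other peaks, so promoters inside peaks of 2 to 16 CPM were also compared. There ETS was found in 4 of 76 member windows (5.26%) against 10.4% of 709, and NRF1 in 1 (1.32%) against 4.51%. These member shares rest on very few windows. Against the 4500, the AP-1 motif and the TATA box TATAAA went the other way, each in 7 of the 89 (7.87%), against 3.64% and 5%. Over all promoters the AP-1 share was 6.99% and the TATA share 12.6%. At 2 to 16 CPM, AP-1 was in 9.21% of the 76 and 6.35% of the 709, and TATA in 7.89% and 6.21%. The GC box was about as frequent in the 89 (75.3%) as in the 4500 (74.0%), but at 2 to 16 CPM it was in 76.3% of the 76 and 64.3% of the 709. All other motifs searched were less frequent in the 89 than in the 4500. At 2 to 16 CPM this did not hold for the CRE motif TGACGTCA and the PU.1 motif GAGGAAGT, each at 2.63% against 2.54%.

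The starts next to a downstream member were compared in the same way. For the 365 starts with a downstream member, ETS was found in 22.5%, NRF1 in 16.4% and YY1 in 12.3%. For all 2524 starts with an eligible downstream peak, which include these, the shares were 18.5%, 13.0% and 9.87%. Their median GC contents were 63.3 and 63.0%. The AP-1 motif, of which Bag3 holds a match, was in 3.56% and 3.88%.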

How the data were processed

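Chromatin accessibility was measured by Omni-ATAC in 12 libraries, 3 in each of 4 groups. The authors deposited raw counts per peak and library with peak coordinates in mm10, the build named in the submitters' processing notes. These notes also name FastQC, BWA, deepTools and R 4.2.1 without their roles. The peak caller and its settings were not given in the sources used here.

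CPM was computed from each column total. Genes and promoter sequences were taken from RefSeq tables for GRCm38.p6, and 79.9% of 21900 protein-coding genes had a listed start. Chromosome 18 starts were not used here. All 68689 peaks were tested with edgeR 4.0.16 in R 4.3.3 (TMM factors, robust quasi-likelihood fit of 4 groups, Benjamini-Hochberg adjustment, adjusted p under 0.05), and DESeq2 1.42.0 was an alternative. In simulated counts for 68689 peaks (CC against CB in WT), 50 peaks were changed at each fold. The fit recovered 22% of 1.5-fold, 82% of 2-fold and 100% of 3-fold changes, with 4 false calls.

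Named members were the 8 with the highest WT mean, the 8 with the largest ratio, up to 2 for each gene list by ratio, the 3 nearest the ratio threshold on each side, and up to 4 called per direction between CC and CB. Atp5c1, Gfi1, Yjefn3, Bivm, Kif3c and Cptp were named outside that rule, for a printed sequence, a count or a neighbour. The members and lists were chosen with earlier results of these data known. The position classes and the omission of library pairs from the fits were chosen after seeing the data. Deviations of CB and CC libraries with the same number correlated within a genotype (r from 0.206 to 0.518 over 6 pairs, against -0.343 to 0.125 for different numbers). The number was therefore used there as a block, a pairing that the labels do not state. Across genotypes same-numbered libraries gave r from -0.011 to 0.399 and were not treated as paired.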

Additional observations from a re-analysis of the deposited data

How the results depend on the processing

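The number of members was 825 as defined, 368 with gene ends reaching 500 bp, 464 with a ratio of at least 1.6, and 1984 without both HOMO libraries numbered 1. Leaving out 1 library gave 803 to 1289. The percentage of members downstream of a start, 44.2 as defined, was 23.6 and 37.9 with gene ends reaching 500 and 2000 bp, 48.1 and 39.2 with a start zone of 200 and 400 bp, and 40.5 to 47.5 with 1 library left out. Members called between CC and CB numbered 1 in WT and 8 in HOMO. With the replicate block they numbered 70 and 80. Without both WT libraries numbered 2 they numbered 0 and 4, and without both HOMO libraries numbered 1 the WT count was 6. DESeq2 gave 4 in WT. Leaving out 1 library gave 0 to 3 in WT and 2 to 9 in HOMO. The difference of genotype effects between populations, which the rule bounds, was called at 0 members under every alternative run, the replicate block included. HOMO against WT was called lower at 695 members in CB and 594 in CC, and at 1446 and 884 of the 15360 eligible peaks. With 1 library left out the member counts were 134 to 729 in CB and 3 to 648 in CC. Without both WT libraries numbered 2 the CC count was 125. The rule chose the members on this contrast, so nothing is read from these counts. The held-out share was 97.7% in the median and 89.1% for number 1. The cause was not tested in any of these cases. Low counts limit the weakest members, which held few counts in the shallow libraries. In the simulated data most 1.5-fold changes went uncalled. Those data held 50 changed peaks for each fold among 68689, while 5.43% of the real peaks were called between CC and CB in WT. The simulated share can therefore not be taken as the share recovered at the members.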

Other observations

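The 20 gene-end peaks that were higher in every HOMO library, by the mirrored rule, lay mostly elsewhere on the gene. Of these 12 were at 3′ ends, 4 at starts and 4 were not placed, and none was downstream of a start. Of all eligible peaks, 7.30% were at 3′ ends, 44.6% at starts, 22.4% were not placed and 16.7% were downstream. A set of 20 peaks is small for reading such shares. The largest ratio, 4.24, was at the shared end of Dvl1, a Wnt signalling gene, and Tas1r3, with a mean of 1.46 CPM in WT and 6.19 CPM in HOMO. The next peak along chromosome 4 is the member downstream of the start of Cptp, which went the other way, with 14.3 CPM in WT and 6.24 CPM in HOMO. A peak at the 3′ end of Irf8, a transcription factor of germinal center B cells, had 29.6 CPM in WT and 41.7 CPM in HOMO. The 3′ end of Apobec1, a cytidine deaminase gene, had 9.33 and 17.1 CPM. These values describe peaks chosen for the difference and were not tested.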
